A study of Rattus norvegicus with 42 samples.

Results

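The genes described here encode the complement and coagulation proteins that the liver secretes into plasma. They were chosen by name, 16 complement genes and 19 coagulation genes, and looked up in the gene names of the pSer2 Pol2 ChIP-Seq table. Of these 35 names, 34 were found among 26258 gene names in the series (15 complement and 19 coagulation genes), and Mbl2 matched no name and was not analysed here. The Ensembl identifiers of the 34 genes gave 31 genes with enough reads to be tested in RNA-Seq (13 complement and 18 coagulation) of 14092 tested in all. The genes had 92 of the 38315 pSer2 Pol2 regions, and 74 of the 3981 GR regions were centred within 50 kb of one of their transcription start sites (TSS). Of these GR regions, 26 were assigned to a complement gene and 48 to a coagulation gene as the nearest TSS, and 21 were within 50 kb of more than 1 of the genes.

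Livers came from male Sprague Dawley rats that had been adrenalectomised, so that all groups lacked adrenal corticosterone (CORT). The methods describe subcutaneous dexamethasone, a synthetic glucocorticoid, after surgery. They also describe CORT in the drinking water during recovery, which ended before infusion. CORT or vehicle (VEH) was infused either pulsatile (PULS) or constant (CONS), and the ages of the rats are not given in the sources used here. Binding of the glucocorticoid receptor (GR) and occupancy of elongating RNA polymerase, phosphorylated at serine 2 (pSer2 Pol2), were measured by ChIP-Seq in 5 groups of 2 libraries, each of which pooled 6 rats. These were the third pulse peak at 140 min (PEAK_140), the following nadir at 180 min (NADIR_180), the same times of constant infusion (CONS_140 and CONS_180), and pulsatile VEH, with 1 library from 140 min (replicate 1 below) and 1 from 180 min (replicate 2). RNA-Seq was done at 180 min in 4 groups of 3 libraries, PULS VEH, PULS CORT, CONS VEH and CONS CORT. Every comparison of a ChIP group with VEH used the same 2 VEH libraries. The methods give each ChIP replicate its own 6 rats and do not say how many rats stand behind an RNA library, so the RNA p-values measure only the spread between these libraries.

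Complement is a cascade of plasma proteases and adaptor proteins that tags and lyses microbes. The classical, lectin and alternative routes meet at C3, and cleavage of C5 then starts assembly of the membrane attack complex from C6, C7, the C8 chains and C9. Coagulation is a second protease cascade, in which thrombin, made from prothrombin, converts fibrinogen to fibrin, while antithrombin, protein C and protein S restrain it and plasmin dissolves the clot. Hepatocytes make most of these proteins, and several of them, fibrinogen and C3 among them, are acute phase proteins.

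The libraries held 3956379 to 7777219 assigned reads for RNA, 4938473 to 9326927 tags for pSer2 Pol2 and 2051977 to 6715803 tags for GR. Hepatocyte markers (Alb, Apoa1, Ttr, Tf and Cps1) summed to between 1.29e+05 and 1.81e+05 CPM (read counts scaled to the TMM-adjusted library size) in the RNA libraries, with 1.29e+05 to 1.75e+05 in CONS VEH and 1.57e+05 to 1.7e+05 in CONS CORT, whereas the summed markers of lymphocytes and of neutrophils stayed below 3 CPM. Fkbp5, Per1 and Tat, which glucocorticoids induce, were called higher in both PULS and CONS by edgeR. Replicate 2 of CONS VEH stood apart for the genes described here. It gave the highest CPM of all 12 RNA libraries for 18 of the 31 genes (58.1%), compared with 10.5% of all 14092 genes, and the 31 genes took 8.4% of its reads but 5.75% to 7.15% of the reads of each other library. Kng1, the gene of the kininogens, was not among the chosen genes and measured 12202 CPM in this library and 1473 to 3428 CPM in the others. The main results that rest on CONS VEH are therefore also given without this library, a choice made after seeing the data.

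Promoter sequences are shown for genes whose RNA or promoter GR binding is described below. Of the 35 names, 27 had an entry in the RefSeq promoter table (build GRCr8, 250 bases before to 50 bases after the start, first listed start), whereas the deposited files use rn6. The letters GTTAAT, a half-site of the element bound by the hepatocyte factor HNF1, were found on either strand in 9 of 27 promoters (33.3%) and in 7.37% of all 27457. The genes were Plg, Fga, Fgb, C5, F2, C8a, C4bpa, F13b and Proc. The letters AGAACA, a half-site of the glucocorticoid response element, were found in 18.5% of the 27 promoters and 20.1% of all, and the palindromic form of that element, with both half-sites, in Serpinf2 alone (3.7%), compared with 0.422% of all. The letters TTCNNNGAA, a STAT element, were found in 5 promoters (Fga, Fgb, C8a, Pros1 and F9, 18.5%) and in 8.68% of all. A match is a description of these windows and not a bound site. In the sequences that follow, capitals mark GTTAAT or its reverse complement ATTAAC, which began 76 bases before the start in C4bpa, 169 and 30 bases before it in C5, 52 bases in Fga and 90 bases in Fgb. In Serpinf2, capitals mark the palindrome, 6 to 18 bases after the start, which overlaps an AGAACA match. The C6 window, shown because C6 RNA was called lower in CONS, held none of the letters searched for.
C4bpa, chr13:44663422-44663721, minus strand: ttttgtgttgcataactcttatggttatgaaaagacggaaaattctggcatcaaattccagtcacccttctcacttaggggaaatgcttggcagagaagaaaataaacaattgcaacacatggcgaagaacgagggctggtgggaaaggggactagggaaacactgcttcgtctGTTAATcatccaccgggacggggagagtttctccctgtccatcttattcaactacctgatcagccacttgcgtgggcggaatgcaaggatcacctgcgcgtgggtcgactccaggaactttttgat
C5, chr3:38759419-38759718, minus strand: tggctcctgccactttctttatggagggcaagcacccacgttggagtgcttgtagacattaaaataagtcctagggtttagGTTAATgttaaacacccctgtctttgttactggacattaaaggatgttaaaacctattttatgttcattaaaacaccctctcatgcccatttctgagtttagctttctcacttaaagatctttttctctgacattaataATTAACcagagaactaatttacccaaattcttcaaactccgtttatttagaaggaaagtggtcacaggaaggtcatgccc
C6, chr2:55573383-55573682, plus strand: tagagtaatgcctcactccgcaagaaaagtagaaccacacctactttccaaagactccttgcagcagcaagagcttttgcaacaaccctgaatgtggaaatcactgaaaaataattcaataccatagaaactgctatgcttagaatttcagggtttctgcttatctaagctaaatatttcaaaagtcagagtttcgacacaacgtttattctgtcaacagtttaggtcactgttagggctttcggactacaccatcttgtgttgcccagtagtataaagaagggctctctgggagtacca
Fga, chr2:170671919-170672218, plus strand: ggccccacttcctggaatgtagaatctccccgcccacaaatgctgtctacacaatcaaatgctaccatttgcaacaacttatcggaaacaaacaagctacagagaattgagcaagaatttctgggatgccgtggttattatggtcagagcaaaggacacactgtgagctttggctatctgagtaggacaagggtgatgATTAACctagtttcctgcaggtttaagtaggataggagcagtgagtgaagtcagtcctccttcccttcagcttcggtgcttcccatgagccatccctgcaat
Fgb, chr2:170700826-170701125, minus strand: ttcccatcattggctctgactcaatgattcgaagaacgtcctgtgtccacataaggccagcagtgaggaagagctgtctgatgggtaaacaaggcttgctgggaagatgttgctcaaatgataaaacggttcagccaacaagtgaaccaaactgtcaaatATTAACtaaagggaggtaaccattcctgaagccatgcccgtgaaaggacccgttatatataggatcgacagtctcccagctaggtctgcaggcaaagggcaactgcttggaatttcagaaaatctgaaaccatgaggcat
Serpinf2, chr10:60778733-60779032, minus strand: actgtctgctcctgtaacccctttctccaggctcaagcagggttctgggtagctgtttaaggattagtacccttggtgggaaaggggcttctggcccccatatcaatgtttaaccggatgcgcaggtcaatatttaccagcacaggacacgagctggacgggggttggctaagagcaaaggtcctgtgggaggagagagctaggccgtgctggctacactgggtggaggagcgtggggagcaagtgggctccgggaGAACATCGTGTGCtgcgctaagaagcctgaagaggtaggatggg

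The first comparison asked which of the genes differed in RNA after constant CORT. There were 4 complement genes that fell, C9, C4bpa, C6 and C5, and no coagulation gene was called. A call required a change of more than 1.5-fold and a p-value that stayed below 0.05 after Benjamini-Hochberg adjustment over all genes tested, and edgeR's quasi-likelihood test gave the adjusted p-values for RNA. The 4 genes were 30.8% of the 13 complement genes tested, against 0 of 18 coagulation genes and 9.2% of all genes (4.75% lower and 4.45% higher). At an unadjusted p below 0.05 there were 7 complement and 5 coagulation genes (38.7% of 31, against 25.3% of all genes), and DESeq2 called the same 4 genes. The median log2 fold change was -0.30 over the complement genes, -0.19 over the coagulation genes and -0.01 over all genes. The difference between the lists was not tested. In liver tissue, fewer cells of a type and less RNA per cell cannot be told apart.

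C9, the component that polymerises into the pore of the membrane attack complex, had the lowest fold change of the 31 genes in CONS. It measured 2269, 3137 and 2649 CPM in PULS VEH, 2052, 1878 and 1588 CPM in PULS CORT, 2065, 3991 and 2786 CPM in CONS VEH and 1642, 1728 and 1603 CPM in CONS CORT. All 3 CONS CORT libraries lay below all 3 CONS VEH libraries, and replicate 2 of CONS VEH was the highest of the 12. The mean was 2947 ± 973 CPM (SD, n = 3) in CONS VEH and 1657 ± 63.9 CPM in CONS CORT, a log2 fold change of -0.83 ± 0.19 (SE), adjusted p = 0.00854. C5, whose cleavage starts the terminal pathway, measured 1981, 2194 and 2096 CPM in PULS VEH, 1539, 1599 and 1356 CPM in PULS CORT, 1693, 2771 and 2082 CPM in CONS VEH and 1383, 1546 and 1349 CPM in CONS CORT. Again the CONS groups did not overlap, and the log2 fold change was -0.61 ± 0.15 (SE), adjusted p = 0.0136. C6, the first protein to join C5b in the attack complex, measured 285, 259.8 and 223 CPM in PULS VEH, 177, 219.8 and 218 CPM in PULS CORT, 196, 370.3 and 262 CPM in CONS VEH and 161, 167 and 182 CPM in CONS CORT. The CONS groups did not overlap here either, although replicate 1 of PULS CORT lay among the CONS CORT libraries, and the log2 fold change was -0.70 ± 0.18 (SE), adjusted p = 0.0167. C4bpa, the alpha chain of the C4b-binding protein that restrains the classical and lectin routes, measured 1489, 1750.0 and 2136 CPM in PULS VEH, 1422, 1412 and 1317 CPM in PULS CORT, 1443, 2562 and 1635 CPM in CONS VEH and 1102, 1181 and 1109 CPM in CONS CORT. Its CONS CORT libraries were the lowest 3 of the 12, and the log2 fold change was -0.73 ± 0.18 (SE), adjusted p = 0.0129. These calls rested on single libraries. Without replicate 2 of CONS VEH none of the 4 genes was called and 8.52% of all genes still were. The log2 fold changes were then -0.55 for C9 (adjusted p = 0.0408), -0.44 for C4bpa (0.0612), -0.43 for C6 (0.0909) and -0.40 for C5 (0.0652), and over the 18 alternatives tried the adjusted p ranged from 0.000561 to 0.0431 for C9, 0.0015 to 0.0612 for C4bpa, 0.00159 to 0.0909 for C6 and 0.00158 to 0.0701 for C5. Without CONS CORT replicate 1, 2 or 3 the number called was 1 (C9), 3 (all but C6) and 2 (C6 and C9), when 7.3%, 8.77% and 7.08% of all genes were called, and without CONS VEH replicate 1 it was 6 (8.77% of all genes), with C8a and Fga added.

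**Figure D1:**
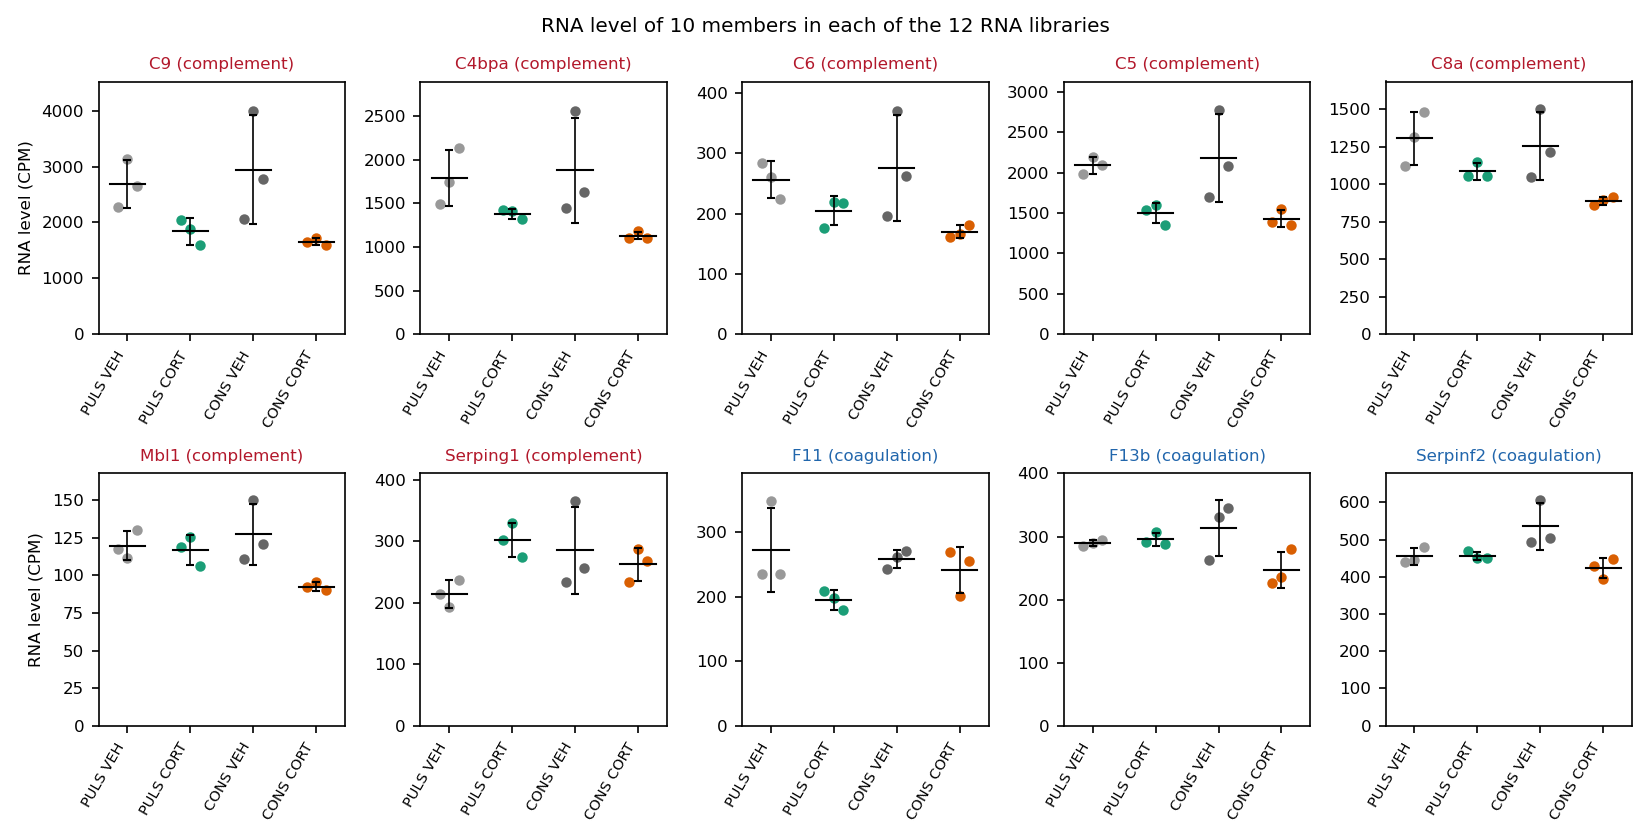
RNA level in CPM of 10 genes in each of the 12 libraries, 1 point per library, with the mean (line) and SD (bars, n = 3) of each group. For C9, C4bpa, C6 and C5 the 3 CONS CORT points lie below the 3 CONS VEH points, of which replicate 2 is the highest, at 3991 CPM for C9.

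A further pair of complement genes was lower in CONS at an adjusted p below 0.05 but within the fold threshold, as were 1.41% of all genes. C8a, the alpha chain of C8 in the attack complex, measured 1121, 1316 and 1479 CPM in PULS VEH, 1056, 1148 and 1052 CPM in PULS CORT, 1046, 1499.7 and 1218 CPM in CONS VEH and 861, 896 and 915 CPM in CONS CORT. Mbl1, a mannose-binding lectin that starts the lectin route, measured 118, 111 and 130.3 CPM in PULS VEH, 119, 126 and 106 CPM in PULS CORT, 111, 149.9 and 121 CPM in CONS VEH and 92, 95.6 and 90.1 CPM in CONS CORT. For both, the CONS CORT libraries lay below all other libraries, with log2 fold changes of -0.49 ± 0.14 (SE), adjusted p = 0.0274, and -0.46 ± 0.12 (SE), adjusted p = 0.0224 by edgeR. Without replicate 2 of CONS VEH, the highest library for both, they were -0.35 (adjusted p = 0.123) and -0.32 (0.111), and over the 18 alternatives the adjusted p ranged from 0.00598 to 0.123 for C8a and from 0.00864 to 0.111 for Mbl1. The 6 terminal pathway genes chosen here (C5, C6, the C8 chains and C9) all had a fold change below 0 in CONS, with a median of -0.55, and 3 were called. Of all 14092 genes, 7178 were below 0 and 9.2% were called. Without replicate 2 of CONS VEH the median was -0.37 and 0 of the 6 were called, against 8.52% of all genes. C7, which was not among the chosen genes, measured 14.3, 26.2 and 21.4 CPM in PULS VEH, 18.5, 14.6 and 12.4 CPM in PULS CORT, 15.8, 26.9 and 17 CPM in CONS VEH and 20.1, 17.5 and 20.1 CPM in CONS CORT, with overlapping groups and a log2 fold change of -0.03 in CONS (adjusted p = 0.961 by edgeR). C8b and C8g, the beta and gamma chains of C8, gave -0.30 and -0.08. The other complement genes lay between -0.19 and 0.06. They were Masp1 and Masp2, the proteases of the lectin route (0.06 and -0.19), C3, the hub of the cascade (-0.14), Cfi, the protease that inactivates fragments of C3 and C4 (-0.04), and Serping1, the inhibitor of C1 and of plasma kallikrein (-0.12).

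Among the coagulation genes, log2 fold changes in CONS ran from -0.44 for Fga to 0.36 for F5, the cofactor of factor X, and 13 of 18 were below 0. The fibrinogen chains Fga, Fgb and Fgg gave -0.44, -0.32 and -0.40, with adjusted p-values of 0.226, 0.373 and 0.272 by edgeR. Fga measured 3838, 5101 and 6129 CPM in PULS VEH, 4237, 4458 and 4130.4 CPM in PULS CORT, 3171, 6741 and 4780.1 CPM in CONS VEH and 3816, 2997 and 3996 CPM in CONS CORT, so that the CONS groups overlapped and replicate 2 of CONS VEH was again highest. The coagulation genes with the smallest unadjusted p were Serpinf2 and F13b in CONS and F11 in PULS. Serpinf2, the inhibitor of plasmin, measured 439, 445 and 481 CPM in PULS VEH, 469, 451 and 450.2 CPM in PULS CORT, 495, 606 and 504 CPM in CONS VEH and 429, 394 and 448 CPM in CONS CORT, a log2 fold change in CONS of -0.34 ± 0.11 (SE), adjusted p = 0.0614 (-0.24, adjusted p = 0.233, without replicate 2 of CONS VEH). F13b, the carrier subunit of the factor that cross-links fibrin, measured 285, 289.6 and 295 CPM in PULS VEH, 291, 308 and 288 CPM in PULS CORT, 263, 332 and 345 CPM in CONS VEH and 226, 235 and 280.3 CPM in CONS CORT, with -0.34 ± 0.12 (SE), adjusted p = 0.0832 (-0.30, adjusted p = 0.203, without that library). The CONS groups did not overlap for Serpinf2 and overlapped for F13b. Of the vitamin K-dependent proteases, F2 (prothrombin), F7, F9 and F10 gave -0.13, 0.06, -0.23 and -0.15. Of the contact proteases, F11, F12 and Klkb1 (prekallikrein) gave -0.10, 0.13 and -0.36. The anticoagulants Proc, Pros1 and Serpinc1 (protein C, protein S and antithrombin) gave 0.03, 0.09 and -0.24, Plg (plasminogen) gave -0.26 and Hrg (histidine-rich glycoprotein) -0.08. None of these was called.

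Counted by library, 10 of the 31 genes had all 3 CONS CORT libraries below all 3 CONS VEH libraries (C4bpa, C5, C6, C8a, C8b, C9, Mbl1, F2, Plg and Serpinf2). That was 32.3% of them, against 14.8% of all genes, where 9.2% were called in either direction. F5 and F12 lay above without overlap (6.45%, against 14.6% of all genes). A gene below all 3 CONS VEH libraries is also below any 2 of them, so leaving out replicate 2 of CONS VEH cannot lower these counts. Against the other 2 libraries, 10 of the 31 genes lay below (32.3%, against 20.1% of all genes). Above them lay 4 (F5, F12, F7 and Masp1, 12.9%, against 19%). Without replicate 2 of CONS VEH the median log2 fold change was -0.21 over the complement genes and -0.09 over the coagulation genes, and 9 of 13 and 13 of 18 genes were below 0.

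**Figure D2:**
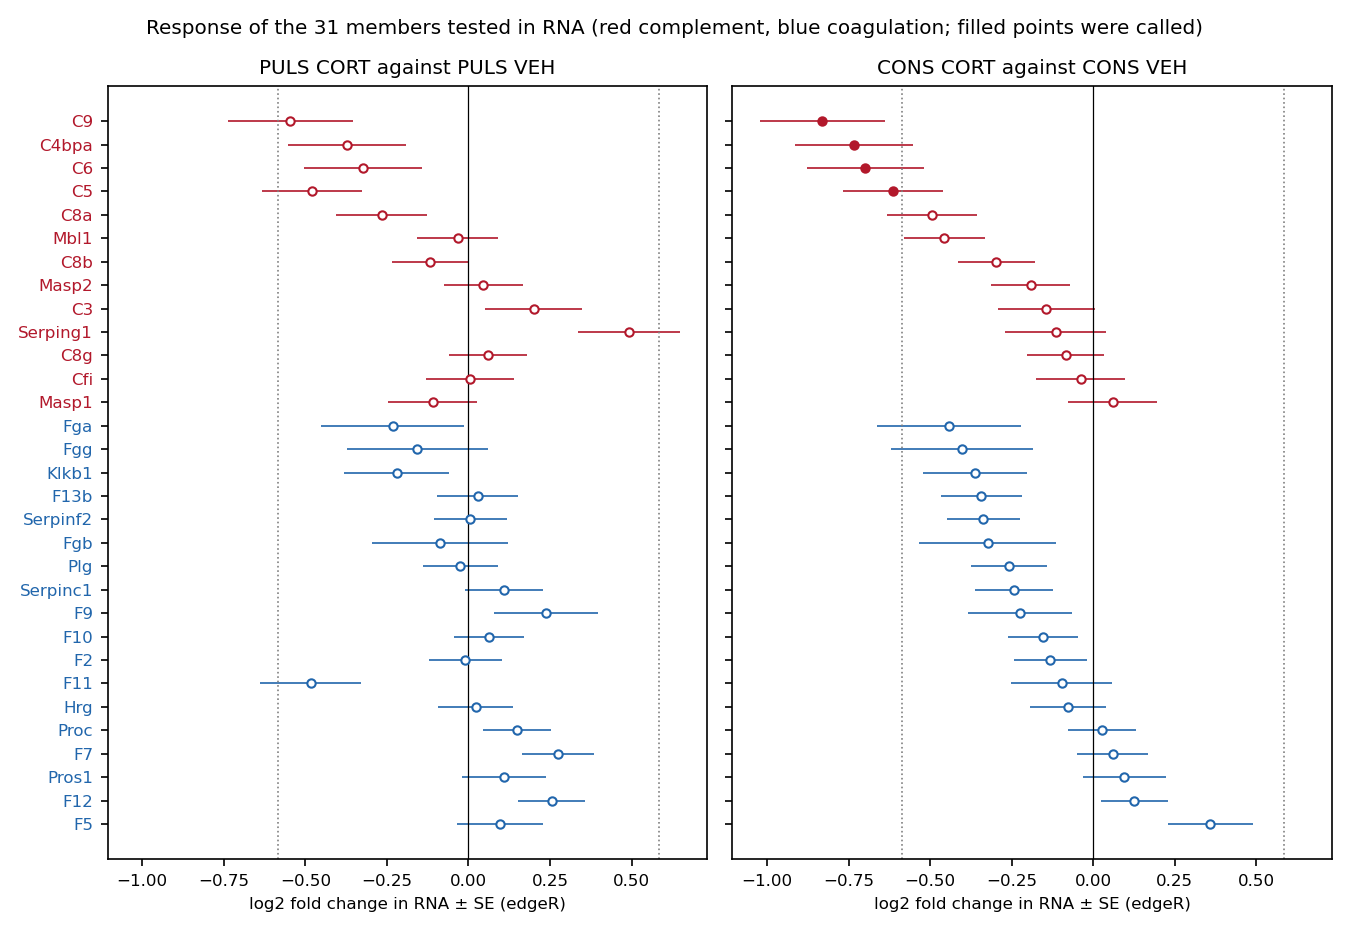
Log2 fold change in RNA with its SE from edgeR for the 31 genes tested, PULS CORT against PULS VEH (left) and CONS CORT against CONS VEH (right), with dotted lines at the fold threshold and filled points for called genes. The 4 filled points, C9, C4bpa, C6 and C5, are all in CONS, and none of them is called without replicate 2 of CONS VEH.

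After pulsatile CORT, at the nadir that follows the third pulse, none of the 31 genes was called in RNA by edgeR or by DESeq2, against 4.23% of all genes. At an unadjusted p below 0.05 there were 6 (3 complement and 3 coagulation), or 19.4%, near the 19.8% of all genes. The median log2 fold change was -0.11 over the complement genes, 0.03 over the coagulation genes and -0.01 over all genes. The 4 genes that fell in CONS gave -0.55 for C9 (adjusted p = 0.113), -0.48 for C5 (0.0798), -0.37 for C4bpa (0.263) and -0.32 for C6 (0.341), and for each of them the PULS groups did not overlap. Serping1 measured 214, 192 and 238 CPM in PULS VEH, 302, 330.1 and 274 CPM in PULS CORT, 234, 365 and 257 CPM in CONS VEH and 234, 287 and 267 CPM in CONS CORT. All 3 PULS CORT libraries lay above all 3 PULS VEH libraries, with a log2 fold change of 0.49 ± 0.16 (SE), adjusted p = 0.0769, whereas the CONS groups overlapped. F11, a protease of the contact route, measured 235, 348 and 235 CPM in PULS VEH, 208, 197 and 179 CPM in PULS CORT, 243, 262 and 271 CPM in CONS VEH and 269.5, 201 and 255 CPM in CONS CORT. Its PULS CORT libraries lay below its PULS VEH libraries, of which replicate 2 was far above the others, with -0.48 ± 0.15 (SE), adjusted p = 0.081 by edgeR. Without that replicate the log2 fold change was -0.27 (adjusted p = 0.355), and over the 18 alternatives the adjusted p ranged from 0.0435 to 0.355. In PULS, 5 of the 31 genes lay below and 5 above without overlap (16.1% each), compared with 12.8% and 12.3% of all genes.

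The responses to the infusion patterns were then compared with each other. In the test of the difference of the responses (CONS minus PULS) none of the 31 genes was called by edgeR or DESeq2, 4 had an unadjusted p below 0.05 (12.9%, against 12.4% of all genes), and 0.0284% of all genes were called. The difference was -0.28 for C9 (95% interval from the SE and the residual degrees of freedom, -0.91 to 0.34) and -0.36 for C4bpa (-0.95 to 0.23). It had its lowest value for Serping1, -0.61 (-1.11 to -0.10, adjusted p = 0.248). Without replicate 2 of CONS VEH the differences were -0.0035 for C9, -0.07 for C4bpa and -0.39 for Serping1, and none was called. The call in CONS and its absence in PULS are thus not shown to differ for these genes. Set directly against PULS CORT, CONS CORT gave no called gene (0.887% of all genes), with 3 at an unadjusted p below 0.05 (9.68%, against 11% of all genes) and 0 by DESeq2. In 12 of the 31 genes all 3 CONS CORT libraries lay below all 3 PULS CORT libraries (C4bpa, C8a, C8b, Mbl1, F2, F7, F9, F13b, Fga, Serpinc1, Serpinf2 and Klkb1), which was 38.7% against 7.9% of all genes, and none lay above (9.23% of all genes). They were 4 of 13 complement genes (30.8%) and 8 of 18 coagulation genes (44.4%). This count uses no VEH library, but it rests on the same 3 libraries per group for every gene, so the genes are not independent. CONS VEH against PULS VEH gave no called gene (0% of all genes), with 2 of the 31 at an unadjusted p below 0.05 (6.45%, against 9.13%) and 0 by DESeq2. For F10, Proc and Serpinf2 all 3 CONS VEH libraries lay above all 3 PULS VEH libraries (9.68%, against 6.86% of all genes), and no gene lay below (6.99% of all genes).

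C2 and Cfb, the proteases of the classical and alternative C3 convertases, and Serpind1 (heparin cofactor) were listed at 0 reads in all 12 RNA libraries, yet pSer2 Pol2 tags were found over them. Over Cfb, the pSer2 Pol2 values on the log2 scale were 8.86 and 8.41 in VEH, 8.43 and 8.35 at PEAK_140, 8.98 and 9.26 at NADIR_180, 8.59 and 8.09 at CONS_140 and 8.66 and 8.23 at CONS_180. Over Serpind1 they were 8.33 and 8.03 in VEH, 7.99 and 8.27 at PEAK_140, 8.37 and 8.37 at NADIR_180, 8.46 and 8.12 at CONS_140 and 8.08 and 7.97 at CONS_180, and over C2 they lay between 3.74 and 4.80. None of the 3 genes was called in any group by limma. C2 and Cfb overlap on the same strand, and how the features of the count table treat such genes was not established, so no statement on their RNA is made. C8g and Cfb also overlap a gene on the opposite strand (Fbxw5 and Nelfe), and the strand setting of the counting is not given in the sources used here.

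Other genes of the same pathways were read from the same fit. C1s, a protease of the classical route, fell in CONS. It measured 651, 728 and 744 CPM in PULS VEH, 753, 659.8 and 609 CPM in PULS CORT, 775, 1078 and 839 CPM in CONS VEH and 599, 528 and 657 CPM in CONS CORT. The log2 fold change in CONS was -0.59 (adjusted p = 0.00968 by edgeR), and without replicate 2 of CONS VEH it was -0.44 (0.0482), which was not called. Of 26 other coagulation genes, 22 were tested and none was called in PULS or CONS (4.23% and 9.2% of all genes). The matching count of other complement genes is not reported here, so these further genes do not compare complement with coagulation. Among the cell type markers, 1 of 5 hepatocyte markers (Cps1, log2 fold change 1.18) and 1 of 5 stellate cell markers (Dcn, 1.16) was called higher in CONS, and none of the Kupffer cell, endothelial, cholangiocyte, lymphocyte, neutrophil, platelet or erythroid markers was. Cd5l, Pecam1, Krt19, Sox9, Cd3e, Mpo, Elane, Ppbp and Gp9 did not have enough reads or a matching row and were not tested. The summed stellate markers ranged from 195 to 208 CPM in CONS VEH and from 139.9 to 172 CPM in CONS CORT, and likewise from 209 to 268 CPM in PULS VEH and from 145.9 to 194.8 CPM in PULS CORT, without overlap in either. The summed Kupffer markers ranged from 223 to 394 and from 263 to 294 CPM in CONS VEH and CONS CORT and from 213 to 303 and from 235.7 to 376.5 CPM in PULS VEH and PULS CORT. Their part in the results above was not tested.

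Occupancy of pSer2 Pol2 over the gene body was used as a measure of transcription. C9 was the 1 gene of the 34 that was called, and it fell at CONS_140. The values are log2 tags after subtraction of input, over at most 10 kb from the TSS, and each gene is given by its region with the highest mean. Over C9 (chr2:55775274-55785274, rn6, plus strand) they were 9.77 and 9.54 in VEH, 7.84 and 8.86 at PEAK_140, 9.07 and 9.40 at NADIR_180, 7.19 and 6.17 at CONS_140 and 7.38 and 7.12 at CONS_180. The CONS_140 and CONS_180 libraries were the lowest, none overlapped VEH, and the PEAK_140 libraries also lay below both VEH libraries. The log2 fold change by limma was -2.98 ± 0.43 (SE, adjusted p = 0.00807) at CONS_140, -2.41 ± 0.43 (SE, adjusted p = 0.0597) at CONS_180, -1.31 ± 0.43 (SE, adjusted p = 0.414) at PEAK_140 and -0.42 ± 0.43 (SE, adjusted p = 1) at NADIR_180. In that comparison 0.788% of all regions and 0.824% of all genes with tags were called. Over 15 alternatives the fold change of C9 at CONS_140 ranged from -3.48 to -2.47 and the adjusted p from 0.000808 to 0.533. The call was lost when only the groups compared were fitted and without CONS_140 replicate 1 (adjusted p = 0.0882), NADIR_180 replicate 1 (0.0725) or 2 (0.0741), and VEH replicate 1 (0.0955) or 2 (0.0762). Fgg was called in place of C9 without CONS_140 replicate 1. Without CONS_140 replicate 2, 7 genes were called (C4bpa, C8a, C9, F5, Fga, Fgg and Klkb1), but so were 15.8% of all genes, and the 1 library left in CONS_140 was then assumed to vary like the other groups.

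**Figure D3:**
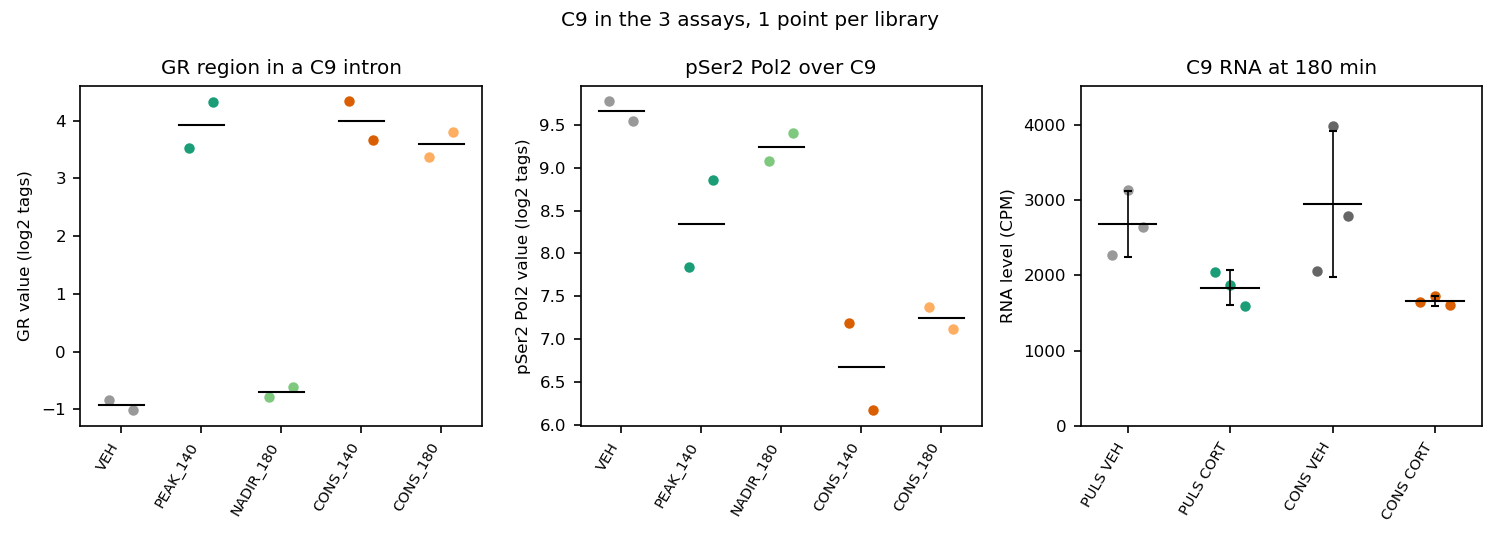
C9 in the 3 assays, 1 point per library with the group mean as a line (and the SD, n = 3, for RNA): log2 GR value in the intronic region, log2 pSer2 Pol2 value over the gene, and RNA in CPM at 180 min. GR values are high at PEAK_140, CONS_140 and CONS_180 and low in VEH and at NADIR_180, whereas pSer2 Pol2 values are lowest at CONS_140, at 7.19 and 6.17.

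At CONS_140 the other genes of the terminal pathway had fold changes below 0 except C8g, but none was called. C8a gave 9.69 and 9.38 in VEH, 8.42 and 8.87 at PEAK_140, 9.27 and 9.30 at NADIR_180, 8.38 and 8.07 at CONS_140 and 8.98 and 8.72 at CONS_180, a log2 fold change of -1.31 ± 0.31 (SE, adjusted p = 0.114). C4bpa gave 10.26 and 10.32 in VEH, 8.94 and 9.75 at PEAK_140, 10.16 and 10.21 at NADIR_180, 9.12 and 8.92 at CONS_140 and 9.30 and 9.34 at CONS_180, with -1.27 ± 0.31 (SE, adjusted p = 0.135). In both, all 4 libraries under constant CORT lay below both VEH libraries. C5 gave 8.75 and 8.43 in VEH, 7.89 and 8.43 at PEAK_140, 8.63 and 8.75 at NADIR_180, 7.80 and 7.22 at CONS_140 and 7.91 and 7.69 at CONS_180, with -1.08 ± 0.34 (SE, adjusted p = 0.359). C6 gave 6.06 and 5.51 in VEH, 3.95 and 4.86 at PEAK_140, 5.88 and 5.72 at NADIR_180, 5.34 and 4.33 at CONS_140 and 5.24 and 5.02 at CONS_180, with -0.95 ± 0.42 (SE, adjusted p = 0.536). These regions of C5 and C6 also showed no overlap between CONS_140 and VEH. C8b and C8g gave -1.0 and 0.76. The median at CONS_140 was -1.04 over the 6 terminal genes and -0.42 over the 15 complement genes, compared with 0.11 over the 19 coagulation genes and 0.15 over all regions. In the fit of values centred on each library's median, which removes that shift, 7 genes were called at CONS_140 (C3, C4bpa, C5, C8a, C9, Fga and Fgg), and 1.74% of all genes were called in that fit. The representative region of C5 (chr3:14102851-14112851) lies away from its other 3 regions, which begin at 14219067 or 14219080 and gave -1.02 at CONS_140 and -1.28 at PEAK_140.

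The fibrinogen genes had the highest pSer2 Pol2 levels per length among the genes described here. Per kb of region, the VEH values were highest for Fga (9.50 on the log2 scale), Fgg (9.24), Fgb (8.77) and C3 (8.75), and lowest for C2 (0.89), F13b (1.31) and F7 (1.6). Fga gave 12.37 and 12.44 in VEH, 12.47 and 12.65 at PEAK_140, 12.20 and 12.29 at NADIR_180, 11.74 and 11.73 at CONS_140 and 12.47 and 12.38 at CONS_180. Fgb gave 12.06 and 12.12 in VEH, 12.31 and 12.44 at PEAK_140, 11.94 and 12.07 at NADIR_180, 11.78 and 11.63 at CONS_140 and 12.21 and 12.11 at CONS_180. Fgg gave 12.08 and 12.14 in VEH, 12.30 and 12.47 at PEAK_140, 12.03 and 12.06 at NADIR_180, 11.30 and 11.29 at CONS_140 and 12.07 and 11.99 at CONS_180. In each chain both CONS_140 libraries were the lowest of the 10 and both PEAK_140 libraries the highest or, for Fga at 12.47, level with the highest CONS_180 library. The fold changes over VEH at CONS_140 were -0.68 ± 0.19 (SE, adjusted p = 0.255), -0.39 ± 0.20 (SE, adjusted p = 0.536) and -0.81 ± 0.20 (SE, adjusted p = 0.137) for Fga, Fgb and Fgg, so none was called. C3 gave 12.11 and 12.04 in VEH, 12.45 and 12.32 at PEAK_140, 12.05 and 11.96 at NADIR_180, 11.56 and 11.19 at CONS_140 and 12.39 and 11.94 at CONS_180. Its CONS_140 libraries were also the lowest, whereas replicate 1 of CONS_180 lay between the PEAK_140 libraries, and the fold change at CONS_140 was -0.70 ± 0.23 (SE, adjusted p = 0.419). In the test of the time effect in PULS minus that in CONS, the 3 chains gave 1.00, 0.82 and 1.07 and C3 1.17, with adjusted p-values of 0.322, 0.543, 0.305 and 0.351 by limma. None of the 34 genes was called there (0.0574% of all regions and 0.0667% of all genes), and 5 had an unadjusted p below 0.05 (14.7%, against 6.41% of all regions). The genes entered this share by their region with the highest mean, whereas all regions include those with few tags. Without CONS_140 replicate 2, 7 genes were called in that test (C3, C5, F12, Fga, Fgb, Fgg and Serpinc1), as were 21.3% of all genes, again with 1 library left in CONS_140.

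**Figure D4:**
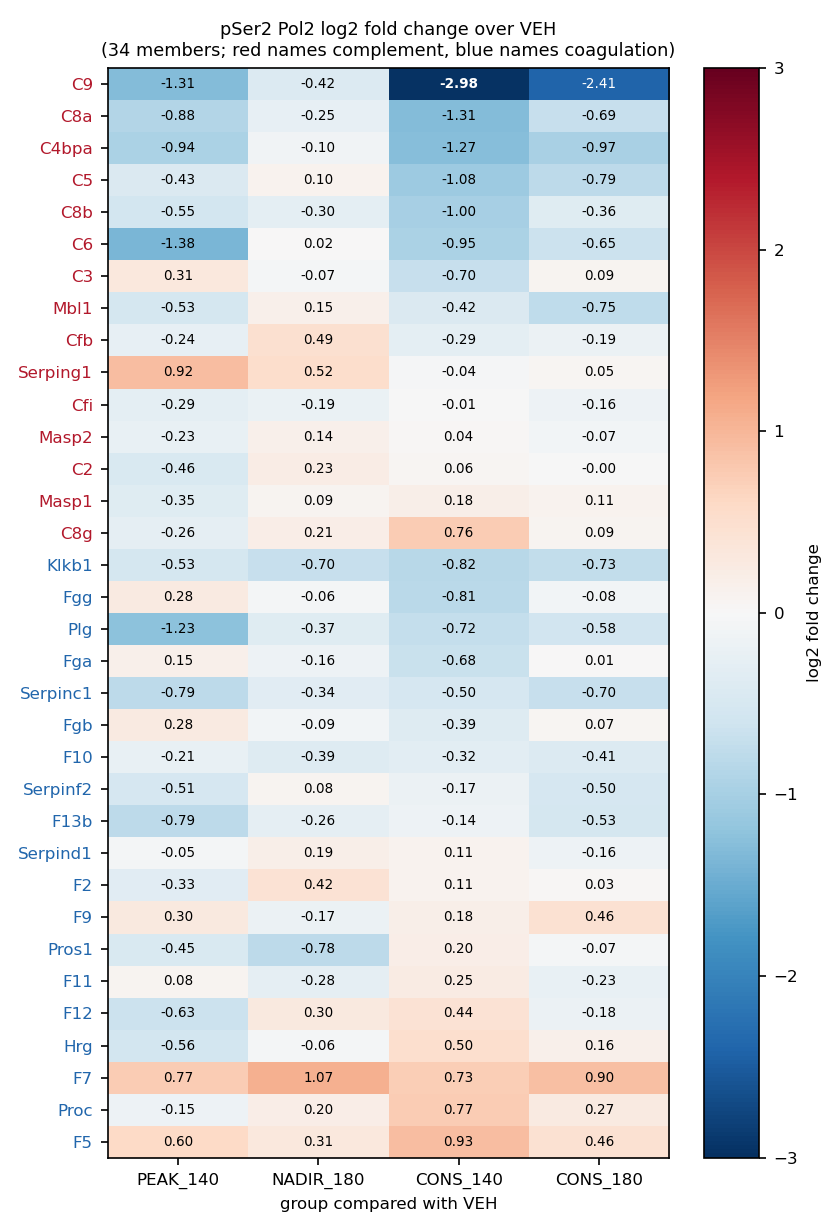
Log2 fold change of pSer2 Pol2 over VEH for the 34 genes (rows, complement then coagulation) in the 4 CORT groups (columns), with the value in each cell, blue for lower and red for higher. C9 at CONS_140 (-2.98, white bold) is the only called cell, and the coagulation genes at CONS_140 run from -0.82 for Klkb1 to 0.93 for F5, around an all-region median of 0.15.

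The remaining genes named for their RNA were not called either. Serping1 gave 7.69 and 7.08 in VEH, 8.05 and 8.56 at PEAK_140, 7.79 and 8.03 at NADIR_180, 7.69 and 7.0 at CONS_140 and 7.66 and 7.23 at CONS_180, with 0.92 ± 0.38 (SE, adjusted p = 0.811) at PEAK_140, where both libraries lay above VEH. F11, F13b, Serpinf2 and Mbl1 gave 0.08, -0.79, -0.51 and -0.53 at PEAK_140 and 0.25, -0.14, -0.17 and -0.42 at CONS_140. The lowest value of a coagulation gene was that of Plg at PEAK_140, -1.23 ± 0.30 (SE, adjusted p = 0.113), with library values of 10.32 and 10.07 in VEH, 8.66 and 9.27 at PEAK_140, 9.68 and 9.97 at NADIR_180, 9.57 and 9.38 at CONS_140 and 9.65 and 9.59 at CONS_180. Both PEAK_140 libraries were the lowest of the 10. No gene was called at PEAK_140 (0.989% of all regions and 1.02% of all genes), NADIR_180 (0.00522% and 0.00606%) or CONS_180 (0.214% and 0.236%) by limma, and at an unadjusted p below 0.05 there were 8, 2 and 6 of the 34 (23.5%, 5.88% and 17.6%, against 5.01%, 1.45% and 2.94% of all regions). At CONS_140 there were 12 (35.3%, against 5.91% of all regions), 7 complement and 5 coagulation genes. These shares are not alike, since each gene is given by its region with the highest mean, whereas all regions include those with few tags. Among regions in the upper 50% by mean, 2.9% of all genes were called at CONS_140, against 0.824% in the main fit. The unadjusted share among such regions was not computed. PEAK_140 against NADIR_180 (0.48% of all regions and 0.509% of all genes), CONS_140 against CONS_180 (0% and 0%), PEAK_140 against CONS_140 (0.0261% and 0.0303%) and CONS_180 against NADIR_180 (0.17% and 0.176%) gave no called gene either, with 4, 4, 10 and 4 at an unadjusted p below 0.05 (5.48%, 2.96%, 8.71% and 2.29% of all regions). Across the 31 genes measured in both assays, the fold change in RNA in CONS and that of pSer2 Pol2 at CONS_140 had a Spearman rho of 0.88, with 19 genes lower in both and 6 higher in both. It was 0.75 with pSer2 Pol2 at CONS_180, and without replicate 2 of CONS VEH it was 0.77 at CONS_140 and 0.82 at CONS_180. It was 0.46 between RNA in PULS and pSer2 Pol2 at PEAK_140. These are descriptions across genes, which are not independent replicates, and the pSer2 Pol2 values share the same 2 VEH libraries.

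GR values near the genes were higher than in VEH at most regions, as they were at most of the 3981 regions. The regions are merged peaks, of which 80.6% were marked in PEAK_140 and 2.91% in VEH, so that most regions being higher after CORT is largely fixed by how they were chosen. Of the 34 genes, 29 (85.3%) had a GR region within 50 kb, compared with 16.9% of all gene names. There were 26258 such names, but only 14092 genes had enough reads to be tested in RNA. The share among genes expressed in liver was not computed, and 21 regions were within 50 kb of more than 1 of the genes. The contrast is therefore not read as particular to these genes. C2, C6, C8b, F12 and F13b had none, so C6 fell in RNA without a GR region within this distance. At PEAK_140, 56 of the 74 regions were called higher and 1 lower by limma, against 80.5% of all 3981 regions called in either direction and 78.6% higher. The complement and coagulation regions were called higher in 20 of 26 and in 36 of 48. At NADIR_180, 3 regions were called, all higher (7.79% of all regions, 7.44% higher), at CONS_140 42 higher and 1 lower (65.1%, 64.7% higher), and at CONS_180 48 higher and 1 lower (68.2%, 67.9% higher). The median log2 fold change at PEAK_140 was 4.13 over the 74 regions and 4.17 over all. Since nearly all regions shifted together, values centred on each library's median left 9, 0, 10 and 8 regions called at PEAK_140, NADIR_180, CONS_140 and CONS_180, when 13.4%, 0%, 12% and 8.21% of all regions were called.

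GR was also compared between the CORT groups. Peaks were marked in 80.6% of all regions at PEAK_140, 61% at CONS_180 and 1.81% at NADIR_180. Higher values than at NADIR_180 are therefore largely fixed by how the regions were chosen, and the counts below are descriptions. PEAK_140 was higher than NADIR_180 at 47 of 74 regions (69.3% of all regions were called, 68.8% higher), CONS_180 higher than NADIR_180 at 34 (49.6%), and CONS_140 and CONS_180 differed at none (0%, with 1 region at an unadjusted p below 0.05, or 1.35% against 4.87% of all regions). PEAK_140 and CONS_140 also differed at none (0.0502%), with 8 at an unadjusted p below 0.05 (10.8%, against 14.1%). The time effect differed between PULS and CONS at 36 regions (44%, 43.6% with the larger effect in PULS). In the fit of centred values the 47, 34 and 36 regions of these 3 comparisons became 5, 0 and 1 (5.43%, 0% and 1% of all regions). Leaving out 1 library lowered them to 24 (without PEAK_140 replicate 1), 15 (without CONS_180 replicate 1) and 11 (without PEAK_140 replicate 1), with 43.8%, 23.8% and 17.3% of all regions called, the remaining library of that group being assumed to vary like the other groups. Peaks passing the authors' filter were marked in 58 regions at PEAK_140, 34 at CONS_140, 53 at CONS_180, 0 at NADIR_180 and 2 in VEH. Of all 3981 regions, 80.6%, 43.3%, 61%, 1.81% and 2.91% held one, against 78.4%, 45.9%, 71.6%, 0% and 2.7% of the 74.

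**Figure D5:**
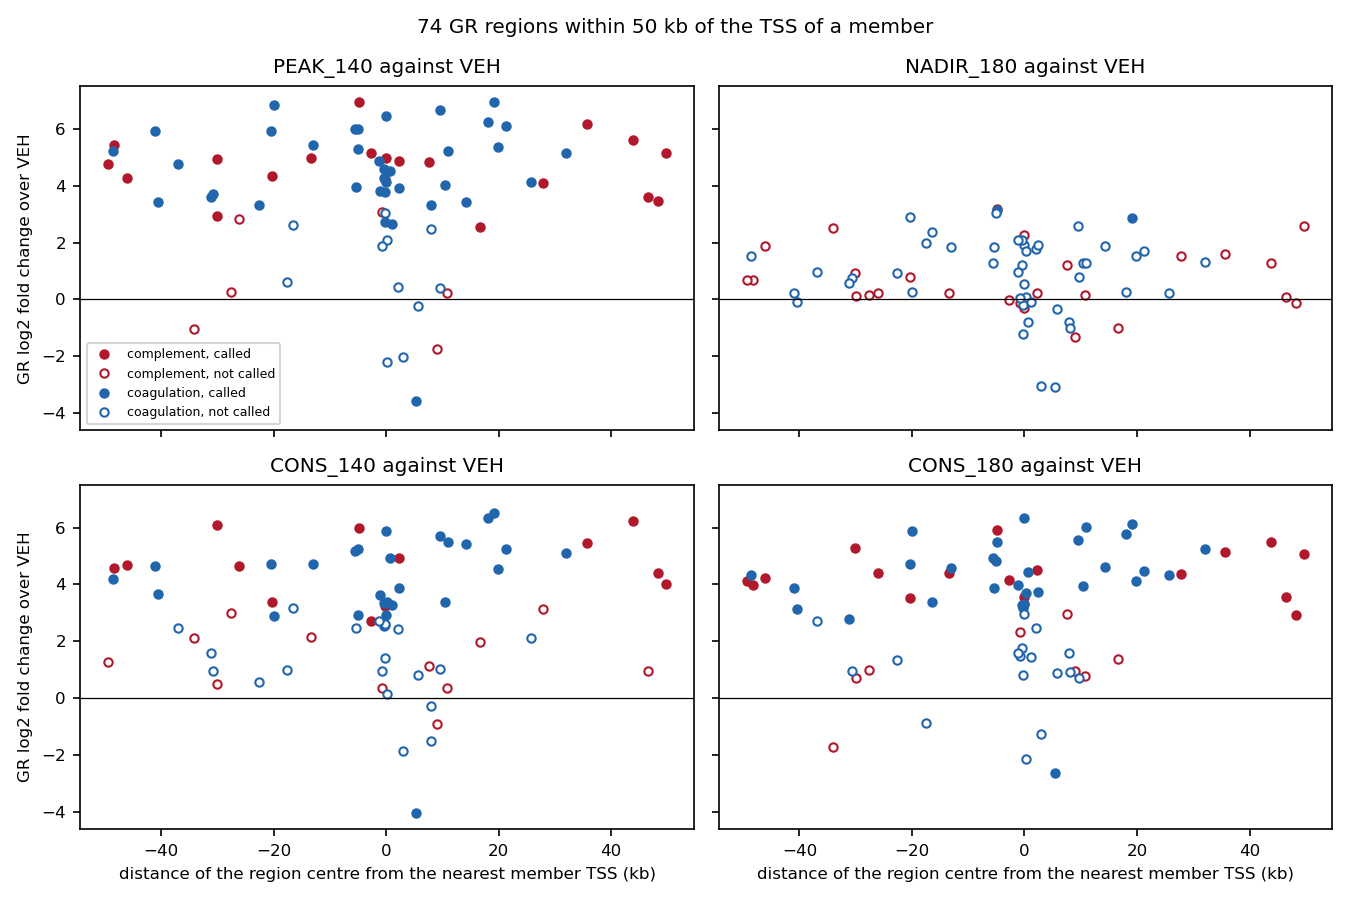
Log2 fold change of GR over VEH (vertical axis) against the distance in kb of the region centre from the nearest TSS of the genes described here (horizontal axis) for the 74 regions, in the 4 CORT groups, with called regions filled. Most filled points lie well above 0 at PEAK_140, CONS_140 and CONS_180 at all distances, and 3 regions are filled at NADIR_180, while on values centred on each library's median 9 regions were called at PEAK_140 and none at NADIR_180.

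Complement genes had 8 GR regions within 10 kb. Positions are in rn6, distances run from the TSS to the region centre and are negative upstream, and values are log2 tags per library. The TSS is the annotated start of the gene nearest to the region, which can differ between regions of 1 gene. The region in an intron of C9 (chr2:55777226-55777851, 2264 b) gave -0.84 and -1.01 in VEH, 3.53 and 4.33 at PEAK_140, -0.78 and -0.61 at NADIR_180, 4.33 and 3.66 at CONS_140 and 3.38 and 3.80 at CONS_180. VEH and NADIR_180 were low and did not overlap the other groups, and the fold change was 4.86 ± 0.63 (SE, adjusted p = 1.96e-04) at PEAK_140, 4.92 ± 0.63 (SE, adjusted p = 2.40e-04) at CONS_140 and 4.52 ± 0.63 (SE, adjusted p = 4.40e-04) at CONS_180. Upstream of C3, the region at -4888 b (chr9:9715905-9716530) gave -0.44 and -0.65 in VEH, 6.42 and 6.42 at PEAK_140, 2.39 and 2.91 at NADIR_180, 5.87 and 4.99 at CONS_140 and 6.00 and 4.75 at CONS_180. It was 1 of the 3 regions called at NADIR_180, at 3.20 ± 0.57 (SE, adjusted p = 0.01), and both NADIR_180 libraries lay between VEH and the rest. The C3 region at -2720 b gave 1.45 and 1.21 in VEH, 6.85 and 6.09 at PEAK_140, 0.84 and 1.76 at NADIR_180, 4.62 and 3.49 at CONS_140 and 6.33 and 4.66 at CONS_180, and the one at the promoter (-150 b) gave -0.52 and 1.69 in VEH, 5.32 and 4.36 at PEAK_140, 3.11 and 2.60 at NADIR_180, 4.62 and 3.03 at CONS_140 and 4.61 and 3.18 at CONS_180. Both were called higher at PEAK_140, CONS_140 and CONS_180. The remaining C3 region, in an exon at 9054 b, gave 2.31 and 0.31 in VEH, -0.53 and -0.38 at PEAK_140, 0.49 and -0.53 at NADIR_180, 1.46 and -0.68 at CONS_140 and 2.39 and 2.10 at CONS_180 and was not called.

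The Serping1 promoter region (chr3:72170744-72171517, -52 b) gave 3.03 and -0.72 in VEH, 6.27 and 5.96 at PEAK_140, 2.01 and -0.28 at NADIR_180, 5.25 and 3.71 at CONS_140 and 5.74 and 3.71 at CONS_180. The VEH libraries differed widely, and the fold change was 4.96 ± 1.30 (SE, adjusted p = 0.00716) at PEAK_140, 3.33 at CONS_140 and 3.58 at CONS_180, all called. At the Masp1 promoter (-769 b) the values were 2.90 and -0.92 in VEH, 4.45 and 3.66 at PEAK_140, 2.27 and -0.54 at NADIR_180, 3.51 and -0.87 at CONS_140 and 3.45 and 3.18 at CONS_180, VEH replicate 1 lay above 1 CONS_140 library and nothing was called. Downstream of Mbl1 (7552 b) they were -0.89 and 0.34 in VEH, 4.96 and 4.17 at PEAK_140, 2.51 and -0.66 at NADIR_180, 2.73 and -1.01 at CONS_140 and 2.34 and 3.03 at CONS_180, called at PEAK_140 alone (4.84 ± 1.36 (SE, adjusted p = 0.00997)). The regions nearest to C4bpa and C5, whose RNA fell in CONS, were farther away. For C4bpa, at -13405 b in an intron (chr13:47390776-47391440), the values were -1.01 and -1.18 in VEH, 4.06 and 3.67 at PEAK_140, -0.95 and -0.79 at NADIR_180, 3.27 and -1.12 at CONS_140 and 3.68 and 2.94 at CONS_180. The 2 CONS_140 libraries disagreed, and the region was called at PEAK_140 (4.96 ± 1.23 (SE, adjusted p = 0.00542)) and CONS_180 (4.40 ± 1.23 (SE, adjusted p = 0.0121)). For C5, at -30012 b (chr3:14258895-14259290), they were -0.95 and -1.04 in VEH, 1.99 and 1.92 at PEAK_140, -0.91 and -0.82 at NADIR_180, -0.01 and -1.02 at CONS_140 and 0.52 and -1.07 at CONS_180. The PEAK_140 libraries stood above the rest, and the only call was at PEAK_140 (2.95 ± 0.83 (SE, adjusted p = 0.0103)), below the all-region median of 4.17.

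The fibrinogen genes lie side by side on chromosome 2 and shared 15 GR regions within 50 kb of at least 1 of them. At the Fga promoter (-34 b, chr2:182005892-182006524) the values were -0.53 and -0.73 in VEH, 6.28 and 5.39 at PEAK_140, 1.52 and 1.02 at NADIR_180, 5.41 and 5.07 at CONS_140 and 6.06 and 5.35 at CONS_180. All 6 libraries of PEAK_140, CONS_140 and CONS_180 lay well above both VEH and NADIR_180, with 6.47 ± 0.55 (SE, adjusted p = 3.15e-05) at PEAK_140. Upstream of Fga (-5414 b) the values were 0.67 and -0.86 in VEH, 4.62 and 3.08 at PEAK_140, 2.58 and 0.94 at NADIR_180, 3.07 and 1.71 at CONS_140 and 4.56 and 2.97 at CONS_180. At the Fgb promoter (-80 b) they were 1.43 and 0.50 in VEH, 5.11 and 5.06 at PEAK_140, 2.00 and -0.35 at NADIR_180, 3.75 and 4.04 at CONS_140 and 3.94 and 4.59 at CONS_180. Within an intron upstream of the Fgb start (-1174 b) they were -1.03 and -1.20 in VEH, 4.17 and 3.34 at PEAK_140, -0.97 and 0.65 at NADIR_180, 2.19 and 0.99 at CONS_140 and 2.30 and -1.32 at CONS_180. Each of these was called at PEAK_140, the Fga region also at CONS_180, and the Fgb promoter also at CONS_140 and CONS_180. Upstream of Fgg (-4914 b, chr2:181981990-181982615) the values were 0.80 and -0.58 in VEH, 6.08 and 6.17 at PEAK_140, 3.89 and 2.63 at NADIR_180, 5.27 and 5.48 at CONS_140 and 5.68 and 5.50 at CONS_180, and this region was called in all 4 groups, with 3.15 ± 0.61 (SE, adjusted p = 0.0138) at NADIR_180. At the Fgg promoter (-278 b) they were 1.94 and 2.34 in VEH, 6.57 and 5.27 at PEAK_140, 2.03 and -0.19 at NADIR_180, 5.09 and 4.32 at CONS_140 and 5.54 and 5.05 at CONS_180, called in all but NADIR_180. At the ends of the genes the values were 1.36 and 1.61 in VEH, 5.00 and 4.64 at PEAK_140, 1.93 and -0.53 at NADIR_180, 3.30 and -0.87 at CONS_140 and 3.65 and 2.50 at CONS_180 for Fgb (7906 b) and 3.36 and 2.77 in VEH, 5.63 and 5.45 at PEAK_140, 1.53 and 2.60 at NADIR_180, 3.76 and -0.66 at CONS_140 and 3.89 and 4.07 at CONS_180 for Fgg (8062 b). The first was called at PEAK_140 and the second in no group. The third region called at NADIR_180 was nearest to Proc and lay beyond 10 kb.

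Of the other 4 regions in exons or introns at the fibrinogen genes, 1 was called lower and 3 were not called. A short exonic Fgg region (chr2:181992491-181992640, 5348 b) gave 2.67 and 2.79 in VEH, -0.92 and -0.76 at PEAK_140, 0.19 and -0.92 at NADIR_180, -1.5 and -1.17 at CONS_140 and -1.37 and 1.55 at CONS_180. Both VEH libraries were the highest, a peak was marked in VEH alone, and the region was called lower at PEAK_140 (-3.57 ± 1.02 (SE, adjusted p = 0.0107)), CONS_140 (-4.07) and CONS_180 (-2.64). Since it was included only through its peak in VEH, these lower calls are largely fixed by that choice. An exonic Fga region of the same length (chr2:182009106-182009255, 2938 b) gave 2.65 and 2.35 in VEH, -0.51 and 1.46 at PEAK_140, -0.58 and -0.50 at NADIR_180, 1.91 and -0.66 at CONS_140 and 1.06 and 1.39 at CONS_180, with both VEH libraries highest and no call. A further exonic Fga region (5700 b) gave -1.21 and -0.35 in VEH, -1.08 and -0.96 at PEAK_140, -1.17 and -1.08 at NADIR_180, 1.33 and -1.25 at CONS_140 and 1.49 and -1.31 at CONS_180, and a region in an intron at Fgb (186 b) gave 4.01 and -1.39 in VEH, -1.02 and -0.81 at PEAK_140, 2.24 and 0.52 at NADIR_180, 4.25 and -1.34 at CONS_140 and -1.59 and -0.06 at CONS_180. In the latter the libraries of 1 group differed by more than the groups did, and neither was called.

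Of the other coagulation genes, those that act in the protease cascade came first. In an intron of F10 (1104 b) the values were -0.76 and 1.09 in VEH, 3.03 and 2.61 at PEAK_140, 0.68 and -0.56 at NADIR_180, 3.99 and 2.91 at CONS_140 and 2.27 and 0.94 at CONS_180, called at PEAK_140 and CONS_140. The F2 promoter region (-730 b) gave 2.32 and -0.72 in VEH, 3.13 and 2.24 at PEAK_140, 0.75 and 0.91 at NADIR_180, 2.90 and 0.58 at CONS_140 and 3.13 and 1.40 at CONS_180, with overlapping groups and no call. Upstream of F5 (-5532 b, chr13:82474153-82474778) they were -0.70 and -0.88 in VEH, 5.16 and 5.25 at PEAK_140, 1.47 and -0.47 at NADIR_180, 4.45 and 4.32 at CONS_140 and 3.64 and 4.63 at CONS_180, with 5.99 ± 0.74 (SE, adjusted p = 1.61e-04) at PEAK_140 and no overlap of the 3 high groups with VEH. F11 and Klkb1, contact proteases, are neighbours. F11 had 2 regions just upstream of different annotated starts. Their centres lay 27018 and 29088 b downstream of the Klkb1 TSS, so they are not 2 sites in 1 promoter. The first, at -432 b, gave -0.83 and -0.97 in VEH, 3.44 and 3.31 at PEAK_140, 1.27 and -0.63 at NADIR_180, 2.41 and 2.48 at CONS_140 and 1.51 and 0.22 at CONS_180. The second, at -220 b, gave 0.68 and 1.15 in VEH, 3.75 and 3.51 at PEAK_140, 1.88 and -0.47 at NADIR_180, 3.00 and 1.66 at CONS_140 and 0.91 and 2.57 at CONS_180. The first was called at PEAK_140 and CONS_140 and the second at PEAK_140. The third F11 region (9628 b) gave 3.06 and 3.28 in VEH, 4.57 and 2.58 at PEAK_140, 4.17 and 3.71 at NADIR_180, 4.20 and 4.16 at CONS_140 and 3.77 and 3.96 at CONS_180, with VEH near the level of the CORT groups and no call. At the Klkb1 promoter (-404 b) the values were -0.69 and 0.46 in VEH, 4.94 and 4.00 at PEAK_140, 2.30 and 1.67 at NADIR_180, 3.61 and 1.24 at CONS_140 and 3.79 and 2.51 at CONS_180, called at PEAK_140, CONS_140 and CONS_180.

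The inhibitors and the fibrinolytic genes followed. Upstream of Serpinc1 (-5036 b) the values were -0.71 and -0.89 in VEH, 4.60 and 4.38 at PEAK_140, 2.31 and 2.16 at NADIR_180, 3.74 and 0.51 at CONS_140 and 4.40 and 3.62 at CONS_180. Within an intron of Serpind1 (9563 b, chr11:87911793-87912439) they were -0.52 and -0.72 in VEH, 6.32 and 5.75 at PEAK_140, 2.91 and 1.02 at NADIR_180, 4.94 and 5.26 at CONS_140 and 5.15 and 4.78 at CONS_180. In an exon of Serpinf2 (676 b, chr10:62272055-62272831) they were 1.40 and -0.85 in VEH, 5.08 and 4.48 at PEAK_140, -0.59 and -0.43 at NADIR_180, 5.59 and 4.80 at CONS_140 and 4.30 and 5.16 at CONS_180. All 3 regions were called at PEAK_140, CONS_140 and CONS_180, at 5.29, 6.66 and 4.51 at PEAK_140. Upstream of Proc (-1140 b) the values were -0.63 and 0.49 in VEH, 4.38 and 3.12 at PEAK_140, 1.5 and 2.55 at NADIR_180, 4.74 and 2.37 at CONS_140 and 4.28 and 3.55 at CONS_180, called in the same groups, and in its intron (2028 b) they were -0.61 and 1.96 in VEH, 2.45 and -0.23 at PEAK_140, 2.75 and 2.12 at NADIR_180, 2.63 and 3.57 at CONS_140 and 2.67 and 3.63 at CONS_180, with no call. In an intron of Pros1 (206 b) they were 0.64 and -0.92 in VEH, 2.74 and 1.14 at PEAK_140, 2.26 and 0.90 at NADIR_180, 4.79 and 1.67 at CONS_140 and 3.85 and 3.26 at CONS_180, called at CONS_140 and CONS_180 but not at PEAK_140, where the fold change was 2.08 ± 1.13 (SE, adjusted p = 0.116). The Plg promoter region (-146 b) gave 1.86 and -0.84 in VEH, 4.31 and 2.79 at PEAK_140, 2.58 and -0.46 at NADIR_180, 4.20 and 2.06 at CONS_140 and 3.70 and 3.21 at CONS_180, with VEH replicate 1 apart from VEH replicate 2 and no call. The Plg intronic region (2328 b) gave -0.76 and -0.92 in VEH, 3.81 and 2.33 at PEAK_140, 2.72 and -0.55 at NADIR_180, 3.37 and 2.68 at CONS_140 and 2.14 and 3.62 at CONS_180, called at PEAK_140, CONS_140 and CONS_180. Of the 35 regions within 10 kb, 23 were called higher and 1 lower at PEAK_140 (68.6%, against 80.5% of all regions). Those higher were 6 of 8 for complement and 17 of 27 for coagulation genes. At CONS_140, 19 were called higher and 1 lower (57.1%, against 65.1% of all regions), and at CONS_180, 18 higher and 1 lower (54.3%, against 68.2%).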

How the data were processed

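ChIP-Seq and RNA-Seq libraries were grouped by their labels. Per the study's methods, the authors trimmed ChIP reads to 50 b with Trimmomatic 0.36, aligned them to rn6 with bowtie2, removed duplicates with SAMtools, called peaks against 1% input with HOMER 4.9.1 and kept those that passed an irreproducible discovery rate of 0.01. The deposited ChIP values are log2 tags that the authors normalised after subtracting input, over merged GR regions and for pSer2 Pol2 over coding regions longer than 320 b, of which the first 10 kb were used. They can be below 0 and are drawn towards the region mean at low tags. For GR the methods name tags within binding regions and the file header total tags as the basis of normalisation, which could shift all GR fold changes. RNA values are raw exonic counts, as deposited by the authors, from STAR and featureCounts 1.6.2. Columns with the authors' own fold changes and p-values were not used, and the input libraries entered only through the deposited subtraction.

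Log2 values were fitted with limma 3.58.1 (trended variance, 10 libraries per assay) and counts with edgeR 4.0.16 (TMM, quasi-likelihood, 12 libraries, genes with more than 10 reads in total) in R 4.3.3, with DESeq2 1.42.0 as an alternative. Calls needed an adjusted p below 0.05 over all features and a log2 fold change beyond 0.585. SEs for RNA were derived from the fold change and the F statistic, and CPM was computed here from the counts. Scripts were tested on simulated data. Genes given in every library were those called in RNA or pSer2 Pol2, the 3 complement and 3 coagulation genes with the next smallest unadjusted p in RNA, and GR regions within 10 kb of a TSS or nearest to a called gene. Per-library pSer2 Pol2 values of further genes (C3, C8a, Cfb, Fga, Fgb, Fgg, Plg and Serpind1) and RNA values of C1s, C7, Fga and Kng1 were added after their values were seen. The genes and lists were chosen with earlier results of these data known. Same-numbered pSer2 Pol2 libraries deviated together (correlation of deviations from group means 0.155 to 0.553 over the 6 pairs of CORT groups, the 2 libraries of a group mirroring each other). Replicate number was therefore fitted as a block over the CORT groups as an alternative, whereas the main fits had no block. For pSer2 Pol2 neither fit called any of the genes between CORT groups. The block left out VEH, so it could not test the call of C9 at CONS_140. Promoters came from RefSeq (GRCr8). Some results for other complement genes, and the count called among them, are not reported here.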

Additional observations from a re-analysis of the deposited data

How the results depend on the processing

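In RNA the 4 genes called in CONS were also called with DESeq2, without a filter on low counts, with filterByExpr and when only the groups compared were fitted. Without a fold threshold 6 of the 31 genes passed, all lower, when 869 of all 14092 genes passed lower and 864 higher. Leaving out 1 library gave 0 to 6 genes in CONS (0 without CONS VEH replicate 2, 1 and 2 without CONS CORT replicate 1 and 3) and 0 in PULS. With the replicate number as a block, RNA gave 4 genes in CONS and 0 in PULS, and pSer2 Pol2 gave 0 in each CORT comparison. GR gave 52 regions for PEAK_140 against NADIR_180, 39 for CONS_180 against NADIR_180 and 41 for the difference of the time effects. Without the block these were 47, 34 and 36. The shares of all features called under the block are not given here, so these counts are not read as particular to the genes. Same-numbered libraries did not deviate together in RNA (correlations of -0.07 to 0.12) or GR (-0.03 to 0.07). No block could be fitted against the ChIP VEH libraries, which carry no number.

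For pSer2 Pol2, values centred on each library's median, a fit without a variance trend and regions in the upper 50% by mean called 2, 2 and 2 genes at PEAK_140 (2.07%, 0.885% and 3.18% of all genes), 7, 3 and 6 at CONS_140 (1.74%, 0.824% and 2.9%), and 1, 1 and 1 for PEAK_140 against NADIR_180 (1.27%, 0.497% and 1.87%). They called 5, 1 and 4 for PEAK_140 against CONS_140 (0.703%, 0.127% and 1.42%). Centring and the upper 50% called 1 and 1 at CONS_180 (0.806% and 1.29%), 1 and 1 for CONS_180 against NADIR_180 (0.436% and 0.814%), and 3 and 4 for the difference of the time effects (0.745% and 1.1%), and the upper 50% called 3 for CONS_140 against CONS_180 (0.16%). Fitting only the groups compared called 0 at CONS_140. Leaving out 1 library gave 0 to 7 at CONS_140, 0 to 2 for CONS_140 against CONS_180, 0 to 8 for PEAK_140 against CONS_140 and 0 to 7 for the difference of the time effects, each highest without CONS_140 replicate 2, where 15.8%, 15.6%, 23.8% and 21.3% of all genes were called. The cause was not tested.

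For GR, centring called 9 regions at PEAK_140 (13.4% of all regions), 0 at NADIR_180 (0%), 10 at CONS_140 (12%), 8 at CONS_180 (8.21%), 5 for PEAK_140 against NADIR_180 (5.43%), 0 for CONS_180 against NADIR_180 (0%) and 1 for the difference of the time effects (1%). At NADIR_180, fitting only the groups compared called 0 (0% of all regions) and the upper 50% called 6 (19.5%). Leaving out 1 library gave 40 to 59 at PEAK_140 (65.6% to 82.6% of all regions), 3 to 13 at NADIR_180 (5.65% to 19%, with 13 and 19% without NADIR_180 replicate 2), 33 to 50 at CONS_140 (51.2% to 74.6%), 33 to 49 at CONS_180 (50.4% to 71.6%), 24 to 51 for PEAK_140 against NADIR_180 (43.8% to 71.9%, with 24 and 43.8% without PEAK_140 replicate 1), 0 to 1 for CONS_140 against CONS_180 (0% to 1.43%), 0 to 8 for PEAK_140 against CONS_140 (0% to 10.2%, with 8 and 10.2% without CONS_140 replicate 1), 15 to 38 for CONS_180 against NADIR_180 (23.8% to 53.2%, with 15 and 23.8% without CONS_180 replicate 1) and 11 to 37 for the difference of the time effects (17.3% to 51%, with 11 and 17.3% without PEAK_140 replicate 1). Centring subtracts the shift shared by the 3981 regions, so that regions below it turn negative by construction, whatever their own change. The values of the 13 called regions concerned at PEAK_140 were, by their distance from the TSS, -1.67 (C5, -30012 b), -0.029 (Klkb1, -404 b), -0.80 (Proc, -1140 b), -0.36 (C3, -150 b), -0.67 (Fga, -5414 b), -0.50 (Fgb, -80 b), -1.96 (F10, 1104 b), -0.83 (Fgg, -278 b), -0.71 (Plg, 2328 b), -1.90 (F11, -220 b), -0.11 (Serpinf2, 676 b), -0.34 (F11, -432 b) and -1.28 (Fgb, 7906 b). Where a ChIP library was left out, the 1 library left in its group was assumed to vary like the other groups. The 2 libraries per ChIP group and the VEH libraries shared by all comparisons limit what can be shown.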
